A study of Rattus norvegicus with 9 samples.

Results

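The genes described here are 41 genes of DNA replication and S phase, chosen by symbol from what their products do: origin licensing, helicase activation, the polymerases, the sliding clamp and its loader, nucleotide supply, chromatin assembly and entry into S phase. They were found by gene name among 19085 genes, and every one was present and had enough counts to be tested. The symbol Cdc45 stands on 2 Ensembl identifiers, 1 of which had 1 count in all 9 libraries together, so that the other (ENSRNOG00000070046) was used.

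The study sequenced polyadenylated RNA from primary osteoblasts of male Sprague-Dawley rats aged 24 hours after 7 days of osteogenic induction, with 3 libraries in each of 3 groups. The control group received induction medium alone, the thrombin group the same medium with thrombin at 20 U/mL, and the PD03 group thrombin at 20 U/mL together with PD0325901 (PD03) at 0.1 µM, an inhibitor of the kinase MEK. There was thus no group with PD03 and without thrombin, and each effect of PD03 given here is one in the presence of thrombin. The growth protocol and the paper give the calvaria as the source, whereas the labels name the knee, and a protocol in the labels gives PD03 as 0.1 mM. The sources call the 3 samples of a group independent without saying whether they came from separate animals or cultures, so that p-values measure the spread between these samples.

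Before S phase, the origin recognition complex, with Cdc6 and Cdt1, loads the ring of Mcm2 to Mcm7 onto DNA. This ring is switched on as a helicase by Mcm10, Cdc45 and the GINS complex, after which primase and the polymerases copy the strands behind the clamp Pcna. Many of these genes are transcribed as cells pass from G1 into S phase, when E2F transcription factors are released from the retinoblastoma protein, a step that mitogens reach through MEK, Erk and the G1 cyclins. Osteoblasts proliferate early in culture and leave the cycle as they mature, and in bulk RNA, fewer cycling cells and less of these messengers per cell cannot be told apart.

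Total counts per library ran from 15447832 to 17646598 in the control group, from 16477182 to 17894354 in the thrombin group and from 16195107 to 19841468 in the PD03 group. The lowest count of any member in any library was 54, for E2f2, and the highest 4852, for Rrm2. Col1a1, a collagen gene, made up 6.78% to 6.96% of each PD03 library and 4.18% to 5.05% of each of the others, and the scaling factors (TMM) were 0.949 to 0.954 in the PD03 group and 1.02 to 1.04 in the others. Of the 7 osteoblast markers examined, Col1a1 and Runx2 were abundant, whereas Ibsp, Dmp1 and Bglap had at most 5 counts in any library. The summed osteoblast markers, nearly all of them Col1a1, were 44300 to 49300 CPM in the control group, 41200 to 44600 in the thrombin group and 71200 to 73200 in the PD03 group. The markers did not move together: Col1a1 was called higher with PD03 against thrombin (0.75) and against control (0.60), and Alpl, at 1.67, 0.345 and 3.11 CPM in the control, thrombin and PD03 groups, was called in all 3 comparisons. Runx2 was at 42.8, 51.1 and 32.2 CPM in these groups and was called lower with PD03 against thrombin (-0.67). With thrombin Runx2 rose by 0.26 (adjusted p = 0.00216), below the fold threshold, and against control it fell by 0.42 with PD03 (adjusted p = 3.24e-06). Sp7, at 4.25, 6.20 and 4.95 CPM, rose by 0.53 with thrombin (adjusted p = 0.018) and did not pass the other 2 comparisons. The 6 myeloid markers summed to 1.58 to 3.11 CPM over all libraries. The endothelial markers, of which 3 of 4 were in the table, summed to 6.69 to 7.77, 6.31 to 8.51 and 11.1 to 12.6 CPM, and the 3 chondrocyte markers to 86.6 to 96.8, 62.7 to 67.8 and 70.2 to 76.8 CPM, in the control, thrombin and PD03 groups. Most of the chondrocyte sum was Col2a1, which was called lower with thrombin (-0.78) and with PD03 against control (-0.58), whereas Sox9 (0.89 and 1.08) and Acan (1.29 and 1.02) were called higher in these comparisons. The part of these cell types and of Col1a1 in the results was not tested.

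Together, the 41 genes took the largest share of the counts in the thrombin group and the smallest in the PD03 group. The share was 0.244%, 0.248% and 0.248% in the control libraries, 0.277%, 0.279% and 0.279% in the thrombin libraries and 0.174%, 0.175% and 0.173% in the PD03 libraries. No library of a group overlapped with another group. After scaling, the summed level in CPM, a count relative to the scaled size of its library, was 2396 ± 43.7 CPM (SD, n = 3) in the control group, 2732 ± 13.5 in the thrombin group and 1826 ± 4.58 in the PD03 group.

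Gene by gene, PD03 with thrombin lowered nearly all of the replication genes against thrombin alone, and most of them also against the control group, whereas thrombin alone raised the majority of them, each by little. A gene was called when its adjusted p-value (edgeR's quasi-likelihood test, Benjamini-Hochberg over 13256 genes) was under 0.05 and it changed by more than 0.58 on the log2 scale in either direction. For PD03 against thrombin, 19 of the 41 were called lower and 0 higher, beside 6.31% and 9.61% of all genes. By adjusted p alone, 40 were lower and 0 higher, beside 24.5% and 25.3%, and the count at an unadjusted p under 0.05 was likewise 40 lower and 0 higher. The share of all genes at an unadjusted p was not computed, here or below. The median log2 fold change was -0.56, a fold of 0.676, with a range from -0.97 to 0.07, and the median over all genes was 0.01. With library totals in place of TMM, 34.5% of all genes were lower and 18.3% higher by adjusted p, and 40 members were lower.

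Against the control group, PD03 gave 6 members called lower and 0 called higher, beside 4.07% and 4.9% of all genes. Here 33 were lower by adjusted p alone and 0 higher, beside 20.2% and 19.7%, while at an unadjusted p under 0.05 the counts were 35 and 0. The median was -0.42, a fold of 0.747, in a range from -0.74 to 0.12. This comparison uses the same PD03 libraries as the one against thrombin, so both are given side by side and are not independent of each other.

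With thrombin alone, 0 members were called in either direction, beside 2.62% of all genes called higher and 5.44% lower, since no member reached the fold threshold. DESeq2 and limma voom also called 0. By adjusted p alone, 25 of 41 were higher and 0 lower, beside 14.1% and 14.6%, and at an unadjusted p under 0.05 28 were higher and 0 lower. The median was 0.22, a fold of 1.16, in a range from -0.12 to 0.51.

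The libraries show the same order. In 40 members every PD03 library lay below every thrombin library, which holds for 27.1% of all genes. In 35 every PD03 library lay below every control library (24% of all genes), and in 27 every thrombin library lay above every control library (20.1%). All 9 libraries were in the order PD03, control, thrombin, from low to high and without overlap, in 22 members, beside 6.18% of all genes. In a test among the 3 groups, 40 of the 41 differed, where 56% of all genes did.

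**Figure D1:**
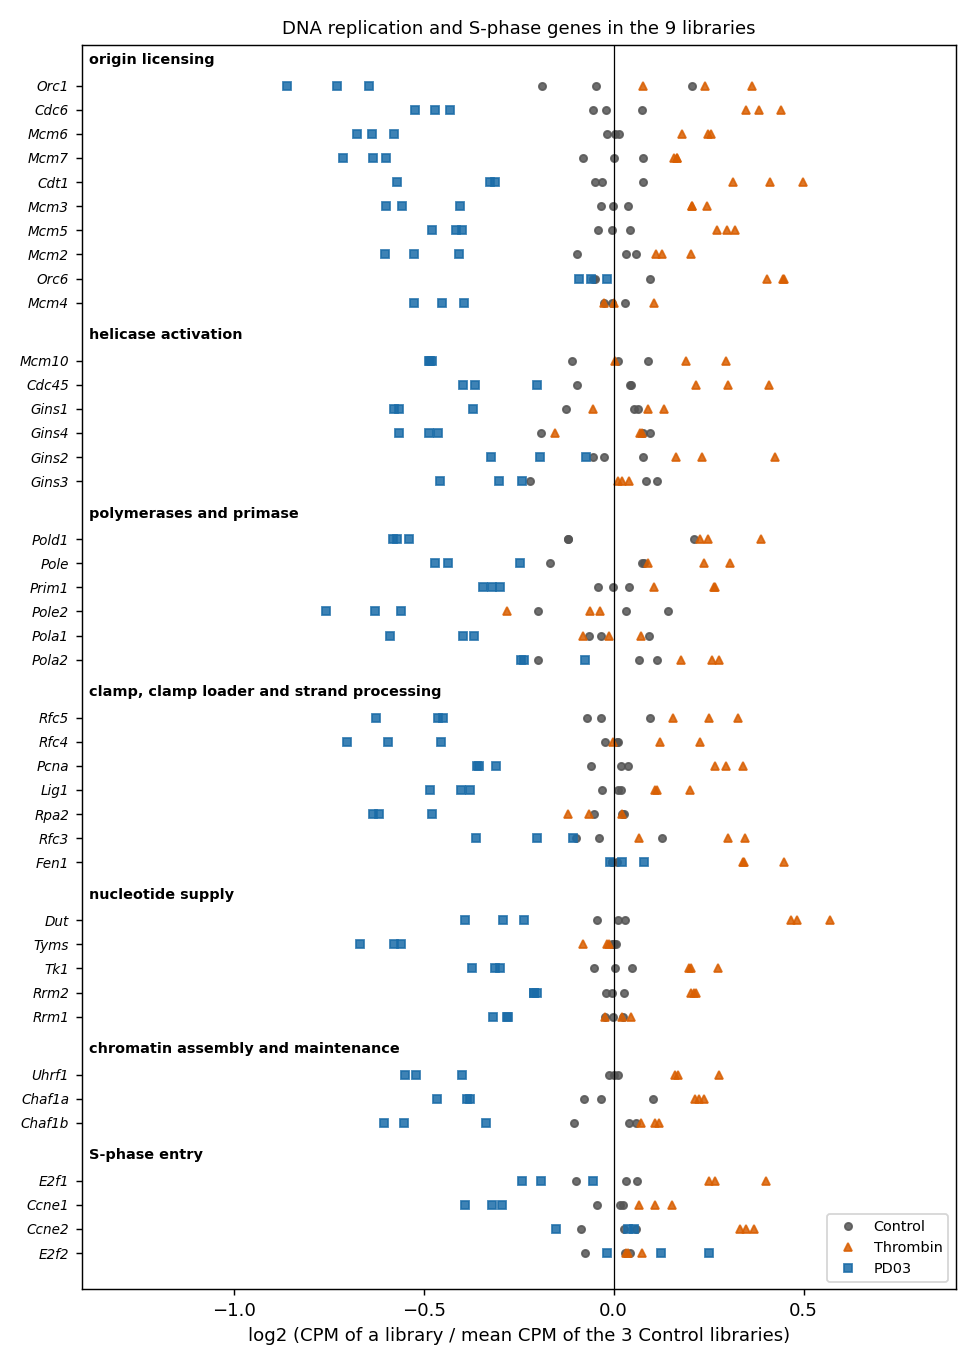
Each point is 1 library, placed by the log2 ratio of its CPM to the mean of the 3 control libraries, for the 41 genes grouped by role (Control, grey circles; Thrombin, orange triangles; PD03 with thrombin, blue squares). The PD03 squares sit left of the thrombin triangles for all genes other than E2f2, and left of the control circles for 35 of 41.

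Sorted by the 3 comparisons with adjusted p alone, the members fell into 5 patterns. The most common, with 20 genes, was higher with thrombin and lower in the PD03 group than in either other group: Cdc45, Cdc6, Cdt1, Chaf1a, Dut, Lig1, Mcm2, Mcm3, Mcm5, Mcm6, Mcm7, Pcna, Pold1, Pole, Prim1, Rfc3, Rfc5, Rrm2, Tk1 and Uhrf1. Another 13 did not pass the test with thrombin and were lower with PD03 against both groups: Ccne1, Chaf1b, Gins1, Gins4, Mcm10, Mcm4, Orc1, Pola1, Pole2, Rfc4, Rpa2, Rrm1 and Tyms. The 5 genes Ccne2, E2f1, Fen1, Orc6 and Pola2 were higher with thrombin and lower with PD03 against thrombin, and did not pass the test between the PD03 and control groups. Gins2 and Gins3 passed only for PD03 against thrombin, and E2f2 passed in none. Passing in 1 comparison and not in another was not itself tested as a difference.

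The start regions of these genes are shown because E2F factors are the textbook regulators of the group. RefSeq promoter windows of the assembly GRCr8, from 250 bases before to 50 bases after an annotated start, were matched by symbol for 33 of the 41 genes, in 36 windows. The 8 genes without a window were Orc1, Cdc6, Mcm4, Gins4, Rrm2, E2f1, E2f2 and Ccne2, and they are not part of the motif results. GRCr8 is not the build that the counts were made on. An exact match on either strand was sought to an E2F site (TTTCCCGC, TTTCGCGC, TTTGCCGC or TTTGGCGC), to an E2F core (TTCCCGCC, which can overlap the first of these by 7 bases) and to a CCAAT box (CCAAT). Stretches from the windows of 10 members follow in the direction of transcription, 60 bases each, with the E2F matches in capitals. These members were picked because they hold an E2F site, so they are not examples of all windows. They are the genes of Mcm2 to Mcm7 with a site and, for each other role with a site, the gene whose site lies nearest the start.

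Mcm2, chr4:122918071-122918130, minus strand: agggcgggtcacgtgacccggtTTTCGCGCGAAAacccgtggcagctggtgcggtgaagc
Mcm3, chr9:30733722-30733781, minus strand: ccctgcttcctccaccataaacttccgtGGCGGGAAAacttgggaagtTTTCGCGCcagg
Mcm5, chr19:13488778-13488837, plus strand: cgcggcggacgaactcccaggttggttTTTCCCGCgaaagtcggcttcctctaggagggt
Mcm6, chr13:42404454-42404513, minus strand: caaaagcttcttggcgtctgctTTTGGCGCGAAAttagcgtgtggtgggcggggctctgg
Mcm7, chr12:22163197-22163256, minus strand: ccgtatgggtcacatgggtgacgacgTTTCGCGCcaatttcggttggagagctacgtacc
Gins1, chr3:160184873-160184932, plus strand: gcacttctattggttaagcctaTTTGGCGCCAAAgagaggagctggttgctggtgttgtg
Pole, chr12:52053638-52053697, minus strand: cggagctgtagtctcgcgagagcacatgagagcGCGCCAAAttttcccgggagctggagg
Rfc3, chr12:5836533-5836592, plus strand: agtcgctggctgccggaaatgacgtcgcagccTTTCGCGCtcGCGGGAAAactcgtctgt
Tyms, chr9:120776087-120776146, minus strand: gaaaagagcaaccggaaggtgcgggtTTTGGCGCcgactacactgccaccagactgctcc
Uhrf1, chr9:1223061-1223120, plus strand: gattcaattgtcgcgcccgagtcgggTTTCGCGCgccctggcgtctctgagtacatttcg

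In Mcm2, Mcm6 and Gins1 the capitals are 2 matches on opposite strands that overlap by 4 bases. Mcm3 and Rfc3 each hold 2 separate places, and the first of Mcm3 matches both the site and the core. An E2F site was found in 16 of the 36 windows (44.4%), beside 4.06% of 11230 windows of genes tested here and 2.14% of all 33469 windows. The core was in 6 (16.7%, beside 3.86% and 1.91%), and either of them in 21 (58.3%, beside 6.8% and 3.57%). A CCAAT box was in 22 windows (61.1%, beside 37.1% and 37.5%). Median GC content was 60% in the windows of members and 60.7% in those of genes tested. Counting overlapping matches once, 20 of 27 E2F places (74.1%) lay within 60 bases of the start, beside 339 of 806 (42.1%) in the windows of genes tested.

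Members with and without a match had close medians for PD03 against thrombin, at log2 fold changes of -0.58 in the 20 genes with an E2F site or core and -0.59 in the 13 without one. For thrombin against control the medians were 0.16 and 0.28, and for PD03 against control -0.47 and -0.33. Pcna, Dut, Tk1, Pold1 and Fen1 are among the 13 without a match, and a match or its absence says only which letters stand in the window.

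**Figure D2:**
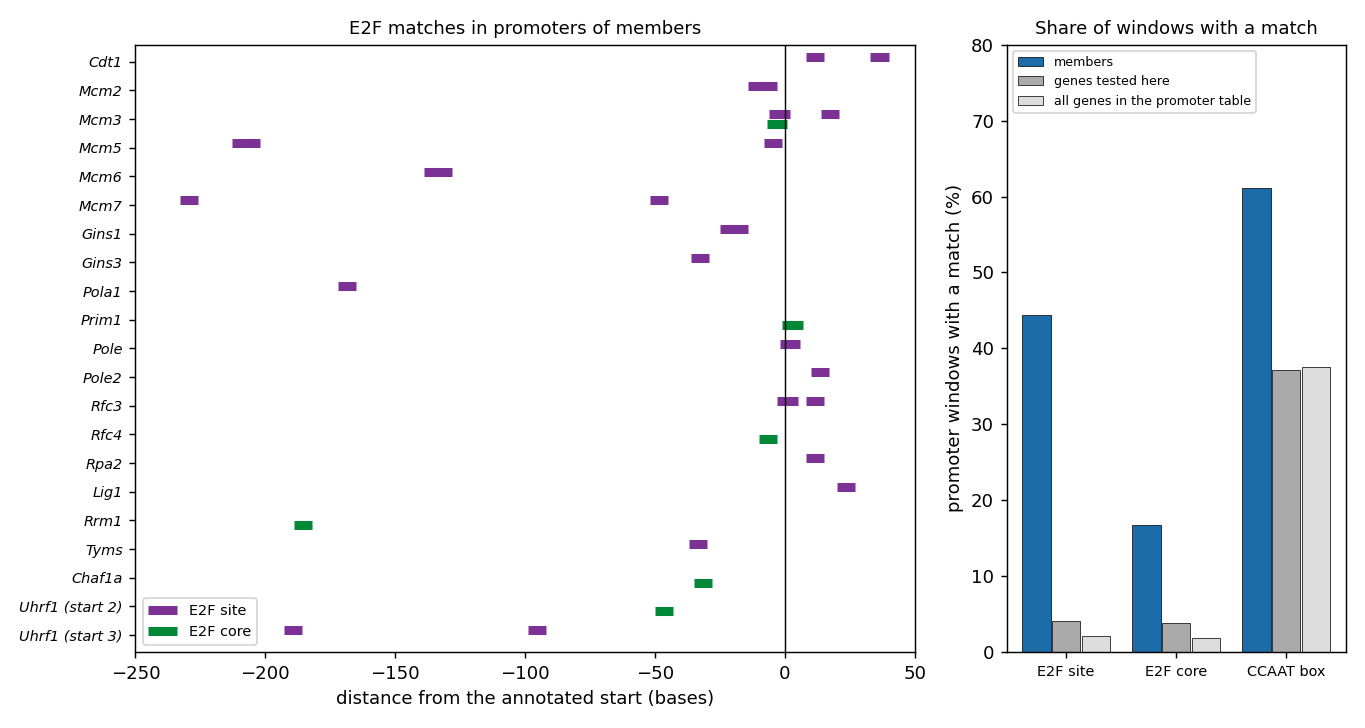
Left, positions of E2F site and E2F core matches in bases from the annotated start for the members with a match (for Uhrf1, separate annotated starts are drawn apart). Right, the share of promoter windows with each motif, where an E2F site was in 44.4% of the members' windows and in 4.06% of those of genes tested.

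Origin licensing was the group with the largest median fall with PD03 against thrombin. Of its 10 members, 8 were called lower against thrombin and all 10 were lower by adjusted p, with a median log2 fold change of -0.77. Against control 3 were called lower and 9 were lower by adjusted p (median -0.49), and with thrombin 8 were higher by adjusted p (median 0.23).

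Orc1, the large subunit of the origin recognition complex and the ATPase that is present mainly in G1, had the largest fall of any member in both comparisons with PD03. Its level was 12.4, 11.2 and 14.8 CPM in the control libraries, 16.5, 15.1 and 13.5 CPM in the thrombin libraries and 7.73, 7.06 and 8.20 CPM in the PD03 libraries. All PD03 libraries were below the other 6, and control and thrombin overlapped. The log2 fold change was -0.97 against thrombin (SE 0.12, adjusted p = 4.98e-09), -0.74 against control (SE 0.12, adjusted p = 3.7e-06) and 0.23 for thrombin against control (SE 0.11, adjusted p = 0.118).

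Orc6, the smallest subunit of the same complex, showed another pattern. It measured 11.6, 11.6 and 12.8 CPM in the control group, 16.4, 15.9 and 16.3 CPM in the thrombin group and 11.5, 11.9 and 11.3 CPM in the PD03 group. The thrombin libraries stood above all others, and the PD03 libraries lay within or close to the range of the control libraries. It rose with thrombin by 0.43 on the log2 scale (SE 0.10, adjusted p = 0.000746) and changed by -0.49 with PD03 against thrombin (SE 0.10, adjusted p = 7.61e-05), and between PD03 and control it differed by -0.05 (SE 0.10, adjusted p = 0.719).

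Cdc6 and Cdt1, which load the Mcm ring, had among the largest differences in both directions. Cdc6 was at 17.5, 17.9 and 19.1 CPM with medium alone, 23.1, 23.6 and 24.6 CPM with thrombin, and 13.5, 12.6 and 13.1 CPM with PD03. Cdt1 was at 30.1, 29.8 and 32.5 CPM, 38.3, 41.0 and 43.5 CPM, and 24.6, 24.8 and 20.8 CPM in the same order. For both, the 3 groups did not overlap, with thrombin highest and PD03 lowest. The log2 fold changes of Cdc6 were 0.39 with thrombin (SE 0.085, adjusted p = 0.000359), -0.86 for PD03 against thrombin (SE 0.089, adjusted p = 5.57e-11) and -0.47 against control (SE 0.092, adjusted p = 5.28e-05). Those of Cdt1 were 0.41 (SE 0.073, adjusted p = 1.74e-05), -0.81 (SE 0.075, adjusted p = 3.47e-12) and -0.40 (SE 0.078, adjusted p = 5.53e-05).

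The 6 subunits of the replicative helicase, Mcm2 to Mcm7, were of similar abundance and fell together. Per length, their mean levels in the control group lay between 31.2 and 40.1 FPKM (fragments relative to gene length and library size). Mcm2, whose start region is printed above, measured 118, 129 and 131 CPM in the control group, 145, 136 and 138 CPM in the thrombin group and 94.98, 83.0 and 87.6 CPM in the PD03 group. Every PD03 library was lower than every other and every thrombin library higher than every control library. The log2 fold change was 0.15 with thrombin (SE 0.049, adjusted p = 0.018), -0.65 with PD03 against thrombin (SE 0.05, adjusted p = 1.12e-14) and -0.51 against control (SE 0.05, adjusted p = 4.05e-11).

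Mcm6 had the largest fall of the 6 against thrombin. It was 133, 133 and 131 CPM in the control libraries, 149.7, 157 and 158 CPM with thrombin and 88.6, 82.8 and 85.1 CPM with PD03, without overlap of groups. Its log2 fold change was -0.86 against thrombin (SE 0.045, adjusted p = 4.6e-20), -0.63 against control (SE 0.045, adjusted p = 3.15e-15) and 0.23 for thrombin alone (SE 0.043, adjusted p = 4.54e-05). Mcm7 had the largest fall of the 6 against control. Its levels were 86.5, 96.5 and 91.5 CPM, 103, 102 and 103 CPM, and 55.8, 58.9 and 60.4 CPM in the control, thrombin and PD03 groups, again without overlap. The corresponding log2 fold changes were -0.65 for PD03 against control (SE 0.052, adjusted p = 1.1e-13), -0.81 against thrombin (SE 0.052, adjusted p = 3.66e-17) and 0.16 with thrombin (SE 0.05, adjusted p = 0.00975).

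The other subunits were close to these. Mcm3 and Mcm5 were called lower against thrombin, with log2 fold changes of -0.74 and -0.73, and rose with thrombin by 0.22 and 0.30. Mcm4 was the exception among the 6 in both respects: its difference with thrombin was 0.03 (adjusted p = 0.713), with overlapping libraries, and its fall with PD03 against thrombin, -0.49, was below the fold threshold. Against control, Mcm3, Mcm4 and Mcm5 fell by 0.52, 0.46 and 0.43 on the log2 scale with PD03. Over the 6 subunits, 5 were called lower against thrombin (median -0.73), 2 against control (median -0.51), and 5 were higher with thrombin by adjusted p (median 0.19).

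**Figure D3:**
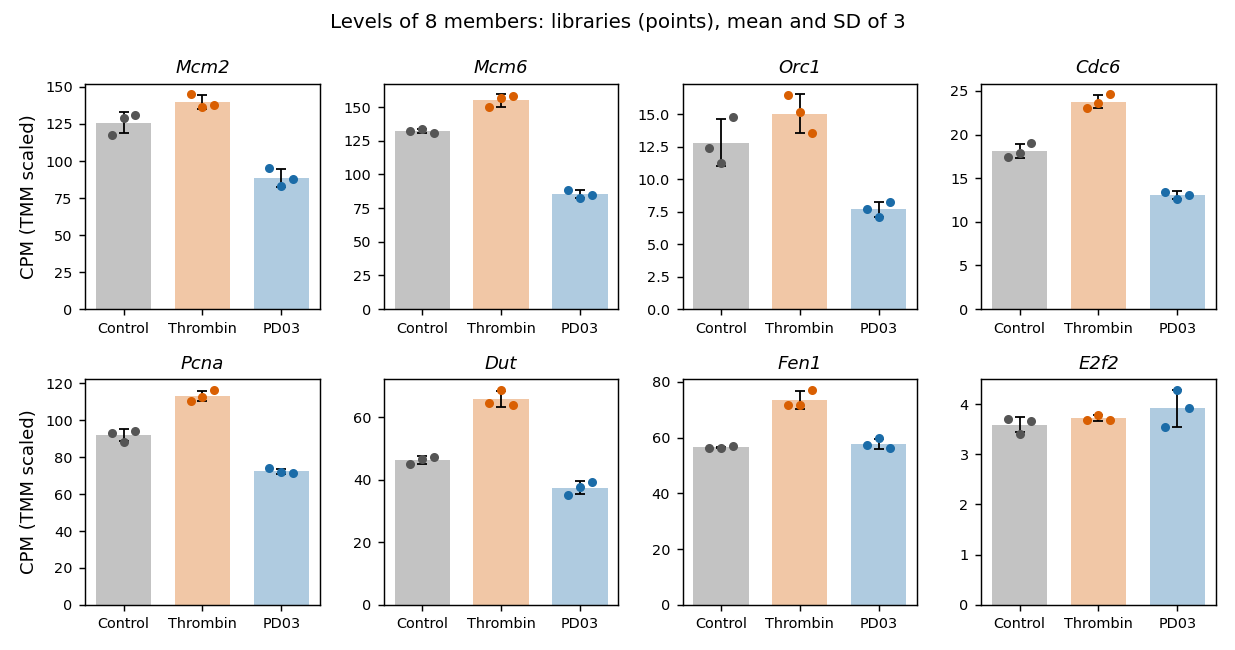
CPM after TMM scaling of 8 members in the Control, Thrombin and PD03 (thrombin with PD03) groups; points are libraries, bars the mean and error bars the SD of 3. The PD03 bar is the lowest for Mcm2, Mcm6, Orc1, Cdc6, Pcna and Dut, level with control for Fen1, and for E2f2 the 3 groups overlap.

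The 6 genes that turn the loaded ring into a moving helicase were all lower with PD03 than with thrombin by adjusted p, and 2 were called (median -0.54). Mcm10, which acts as the ring is activated, and Cdc45, a permanent part of the active helicase, were the called ones, at -0.65 and -0.63. Mcm10 stood at 21.3, 21.4 and 21.2 CPM in the PD03 libraries and at 27.6 to 36.6 CPM in the other 6. Cdc45 was the only one of the 6 that was higher with thrombin by adjusted p, by 0.31 (adjusted p = 0.00875).

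The GINS complex is a ring of 4 proteins that joins Cdc45 on the helicase, and its genes varied among themselves. Gins1 and Gins4 were lower with PD03 against both groups, by 0.56 and 0.51 against thrombin and by 0.50 and 0.51 against control on the log2 scale. Gins2 fell by 0.47 against thrombin, and against control its difference was -0.19 (adjusted p = 0.19). Gins3 had the smallest fall of the 4 against thrombin, -0.35 (adjusted p = 0.0295), and was at -0.33 against control (adjusted p = 0.0518). With thrombin, none of the 4 passed the test, and Gins2 had the largest difference, 0.28 (adjusted p = 0.0523). Gins2 and Gins3 were also among the scarcest members per length, at 2.75 and 3.52 FPKM in the control group, where Gins1 was at 16.5 and Gins4 at 9.84.

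Among the polymerases and primase, all 6 genes were lower with PD03 than with thrombin by adjusted p and 2 were called (median -0.53). The called genes were Pold1, the catalytic subunit of the lagging-strand polymerase delta, and Pole, that of the leading-strand polymerase epsilon. Pold1 measured 45.9, 57.7 and 45.8 CPM in the control group, 65.2, 59.1 and 58.3 CPM in the thrombin group and 33.3, 33.6 and 34.3 CPM in the PD03 group. Control replicate 2 was close to the thrombin libraries without overlapping them. Its log2 fold change was -0.85 against thrombin and -0.56 against control, and 0.29 with thrombin (adjusted p = 0.000806). Pole changed by -0.59, -0.37 and 0.22 in the same comparisons, all past the adjusted p.

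Pole2, the second subunit of polymerase epsilon, did not pass the test with thrombin, where Pole did. Its level was 8.81, 10.4 and 11.2 CPM in the control group, 9.70, 9.87 and 8.34 CPM in the thrombin group and 5.99, 6.87 and 6.55 CPM in the PD03 group. The control and thrombin libraries overlapped and all PD03 libraries were below them. Its difference with thrombin was -0.12 (SE 0.13, adjusted p = 0.551), the lowest of all members, and its falls with PD03 were -0.53 against thrombin (SE 0.13, adjusted p = 0.001) and -0.64 against control (SE 0.13, adjusted p = 0.000116), the latter called. Klhdc1, a neighbour that overlaps Pole2, differed by -0.10 (adjusted p = 0.806) and 0.17 (adjusted p = 0.707) in these comparisons.

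Polymerase alpha and primase form 1 complex that lays down the primers. Its catalytic subunit Pola1 differed by -0.0038 with thrombin (adjusted p = 0.98), whereas its partner Pola2 rose by 0.24 (adjusted p = 0.0193) and the primase subunit Prim1 by 0.21 (adjusted p = 0.00294). With PD03 against thrombin all 3 fell, by 0.45, 0.42 and 0.54 on the log2 scale. Against control, Pola1 fell by 0.45 and Prim1 by 0.32, and Pola2 was at -0.18 (adjusted p = 0.0914).

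Of the 7 genes of the clamp, its loader and strand processing, all were lower with PD03 than with thrombin by adjusted p, 3 were called (median -0.56), and 5 were higher with thrombin (median 0.25). Pcna, the ring that holds the polymerases on DNA, measured 93.2, 88.1 and 94.3 CPM in the control group, 111, 113 and 116 CPM in the thrombin group and 74.1, 71.9 and 71.6 CPM in the PD03 group. The 3 groups did not overlap. Pcna rose by 0.30 on the log2 scale with thrombin (SE 0.047, adjusted p = 1.96e-06), a fold of 1.23. With PD03 it fell by 0.64 against thrombin (SE 0.048, adjusted p = 6.11e-15), a fold of 0.641, and by 0.34 against control (SE 0.049, adjusted p = 2.25e-07), a fold of 0.790.

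The other called genes of this group were both of the clamp loader. Rfc5 and Rfc4 fell by 0.75 and 0.70 against thrombin and by 0.51 and 0.58 against control, and Rfc4 was called in both. The call of Rfc4 against control (-0.5814) was at the edge of the threshold and ended in DESeq2 (-0.5797). Rfc3, of the same pentamer, changed by -0.46 against thrombin, by -0.22 against control (adjusted p = 0.0494) and by 0.25 with thrombin. Rpa2, which coats single strands, did not pass the test with thrombin (-0.05, adjusted p = 0.649) and fell by 0.52 and 0.57 with PD03. Lig1, the ligase that seals Okazaki fragments, changed by 0.14 with thrombin, -0.56 against thrombin and -0.42 against control.

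Fen1, the nuclease that trims the ends of Okazaki fragments, was raised by thrombin and did not pass the test between the PD03 and control groups. It measured 56.3, 56.3 and 56.9 CPM in the control libraries, 71.6, 71.7 and 77.1 CPM with thrombin and 57.4, 59.7 and 56.1 CPM with PD03. The thrombin libraries were above the other 6, which overlapped. The log2 fold change was 0.38 with thrombin (adjusted p = 3.1e-07) and -0.35 with PD03 against thrombin (adjusted p = 6.63e-07), and the difference of PD03 from control was 0.03 (adjusted p = 0.69) and reached -0.08 with library totals in place of TMM. Fen1 overlaps Tmem258 on the assembly GRCr8, and strand was not given for the counts.

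The 5 genes of nucleotide supply included the most abundant of all members. In the control group, per length, Rrm2 was at 92.0 FPKM, Rrm1 at 68.5, Tk1 at 52.8, Dut at 27.7 and Tyms at 22.2. All 5 were lower with PD03 against both groups by adjusted p, with medians of -0.55 against thrombin and -0.31 against control, and only Dut was called against thrombin and only Tyms against control.

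Dut, the dUTPase that keeps uracil out of DNA, had the largest rise of any member with thrombin. It was at 44.9, 46.6 and 47.2 CPM in the control group, 64.5, 68.6 and 63.8 CPM in the thrombin group and 35.2, 37.8 and 39.2 CPM in the PD03 group, without overlap. The log2 fold change was 0.51 with thrombin (SE 0.059, adjusted p = 2.41e-09), -0.81 with PD03 against thrombin (SE 0.06, adjusted p = 3.68e-15) and -0.31 against control (SE 0.062, adjusted p = 8.8e-05). A pseudogene of Dut and several of Pcna are named in RefSeq, and no such copy has a name of its own in the deposited table, so that shared reads cannot be told apart.

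Tyms, the thymidylate synthase, did not pass the test with thrombin: it was at 77.7, 77.1 and 77.4 CPM in the control libraries and at 76.7, 76.5 and 73.2 CPM in the thrombin libraries, a difference of -0.04 (adjusted p = 0.655). In the PD03 libraries it was at 48.7, 52.5 and 51.9 CPM, that is -0.57 against thrombin and -0.60 against control on the log2 scale. The values of both subunits of ribonucleotide reductase were apart with thrombin. Rrm2, the subunit known to be made in S phase, rose by 0.21 (adjusted p = 1.37e-05), while Rrm1, the large and more stable subunit, was at 0.01 (adjusted p = 0.822). With PD03 against thrombin, Rrm2 fell by 0.42 and Rrm1 by 0.31. Tk1, the thymidine kinase of the salvage pathway, rose by 0.23 with thrombin and fell by 0.55 with PD03 against thrombin and by 0.33 against control.

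All 3 genes of chromatin assembly and maintenance were called lower with PD03 against thrombin (median -0.63), and all 3 were lower against control by adjusted p (median -0.49). Chaf1a and Chaf1b encode subunits of the chaperone that sets histones on new DNA. They fell by 0.63 and 0.59 against thrombin, and with thrombin Chaf1a rose by 0.23 (adjusted p = 0.00172) where Chaf1b was at 0.10 (adjusted p = 0.447). Uhrf1, which brings the maintenance methyltransferase to new DNA, was at 72.1, 72.7 and 73.2 CPM in the control group, 88.1, 81.3 and 81.7 CPM in the thrombin group and 55.2, 50.7 and 49.7 CPM in the PD03 group. Its groups did not overlap, and its log2 fold changes were 0.20 with thrombin, and with PD03 -0.69 against thrombin and -0.49 against control.

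The 4 genes of S-phase entry, the regulators upstream of the others, had the smallest median differences with PD03. None was called in any comparison with edgeR. Against thrombin 3 of 4 were lower with PD03 by adjusted p (median -0.41), and against control only Ccne1 was (-0.34, adjusted p = 0.000225). E2f1, an activating E2F, was higher with thrombin by 0.31 (adjusted p = 0.00163) and lower with PD03 against thrombin by 0.47 on the log2 scale (adjusted p = 2.9e-06), and stood at -0.15 against control (adjusted p = 0.128). Ccne2 followed the same course, with 0.35, -0.37 and -0.02. Of the cyclins E, partners of Cdk2 at the G1/S border, Ccne1 differed by 0.11 with thrombin (adjusted p = 0.264).

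E2f2 was the scarcest member, at 1.20 FPKM in the control group, and the one that passed no test. It measured 3.70, 3.41 and 3.66 CPM in the control libraries, 3.69, 3.78 and 3.67 CPM with thrombin and 3.55, 4.27 and 3.92 CPM with PD03. All groups overlapped. Its log2 differences were 0.05 (SE 0.19), 0.07 (SE 0.19) and 0.12 (SE 0.19), with adjusted p-values of 0.886, 0.786 and 0.661. A change of the median size seen in the other members with thrombin would lie close to its error. The median of all members for PD03 against thrombin, -0.56, is larger in size than that error.

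Other genes of the same pathways were examined in lists set by role, with earlier results of these data known. Of 33 tested rows of other replication factors, 24 were lower and 2 higher by adjusted p with PD03 against thrombin (median -0.47), and 10 were called lower. Of these Mcm8, a helicase of recombination, and Gmnn (geminin, the inhibitor of Cdt1) were lowest, at -0.94 (adjusted p = 1.15e-06) and -0.91 (adjusted p = 1.23e-12). Against control 23 were lower (median -0.32), led among the called by Chtf18 (-0.77) and Atad5 (-0.71), which load and unload the clamp. Both rows of the symbol Pole3 are among these 23. With thrombin 4 were higher and 1 lower (median 0.13), beside 14.1% and 14.6% of all genes. For this list and those below, 24.5% of all genes were lower and 25.3% higher by adjusted p with PD03 against thrombin, and 6.31% were called lower. Against control, 20.2% of all genes were lower and 19.7% higher by adjusted p.

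In the lists nearest to replication the direction was mostly the same. Of 10 other genes of nucleotide supply, 7 were lower and 1 higher with PD03 against thrombin (median -0.23). Among them the folate enzyme Shmt1 changed by -0.99 and the kinase Dck by -0.67, and against control Shmt1 changed by -1.18. Of 12 genes of fork protection and the S-phase checkpoint, 10 were lower and 0 higher (median -0.48), with Rad1 at -0.67 and the kinase Chek1 at -0.65, and against control Hus1 at -0.59. All 8 genes of histone supply and replication-coupled chromatin were lower (median -0.42), with the methyltransferase Dnmt1 at -0.73 and the remodeller Hells at -0.66 against thrombin and -0.63 against control.

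The other E2F and pocket protein genes went in both directions. Of 11, 7 were lower and 4 higher with PD03 against thrombin by adjusted p (median -0.39). Rb1, which encodes the retinoblastoma protein that holds E2F in check, was called higher, at 0.66 against thrombin (SE 0.1, adjusted p = 4.55e-07) and 0.59 against control (SE 0.1, adjusted p = 5.78e-06). E2f8, a repressor E2F, was called lower in both, at -0.85 and -0.62, and the pocket protein gene Rbl1 against thrombin, at -0.63. Both calls of Rb1 ended with library totals in place of TMM (0.56 and 0.47 against thrombin and control) and from log2(FPKM + 1) (0.44 and 0.38), while the adjusted p stayed past the threshold. They also ended when some single libraries were left out, with values of 0.58 against thrombin without Thrombin replicate 2 and down to 0.52 against control without Control replicate 3.

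For comparison, 20 genes of G2 and mitosis were examined in the same way. All 20 were lower with PD03 against thrombin by adjusted p (median -0.61) and against control (median -0.44), and with thrombin 11 were higher (median 0.17). Aurka and Bub1b, kinases of mitosis, had the largest called falls against thrombin, at -0.82 and -0.80, and Bub1b was called against control, at -0.61. In thrombin against control no gene of these 6 lists was called, and at an unadjusted p under 0.05 39 of their genes were higher and 6 lower. Fewer passed the adjusted p, which 14.1% of all genes did as higher and 14.6% as lower with thrombin. Other nucleotide supply had 1 higher and 1 lower of 10, close to these shares, and fork protection and checkpoint 5 and 0 of 12. Other E2F and pocket proteins had 3 and 1 of 11. Histone supply and chromatin had 1 and 0 of 8, with the count of higher genes again close to the share of all genes. The replication genes thus did not stand alone in their direction with PD03.

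**Figure D4:**
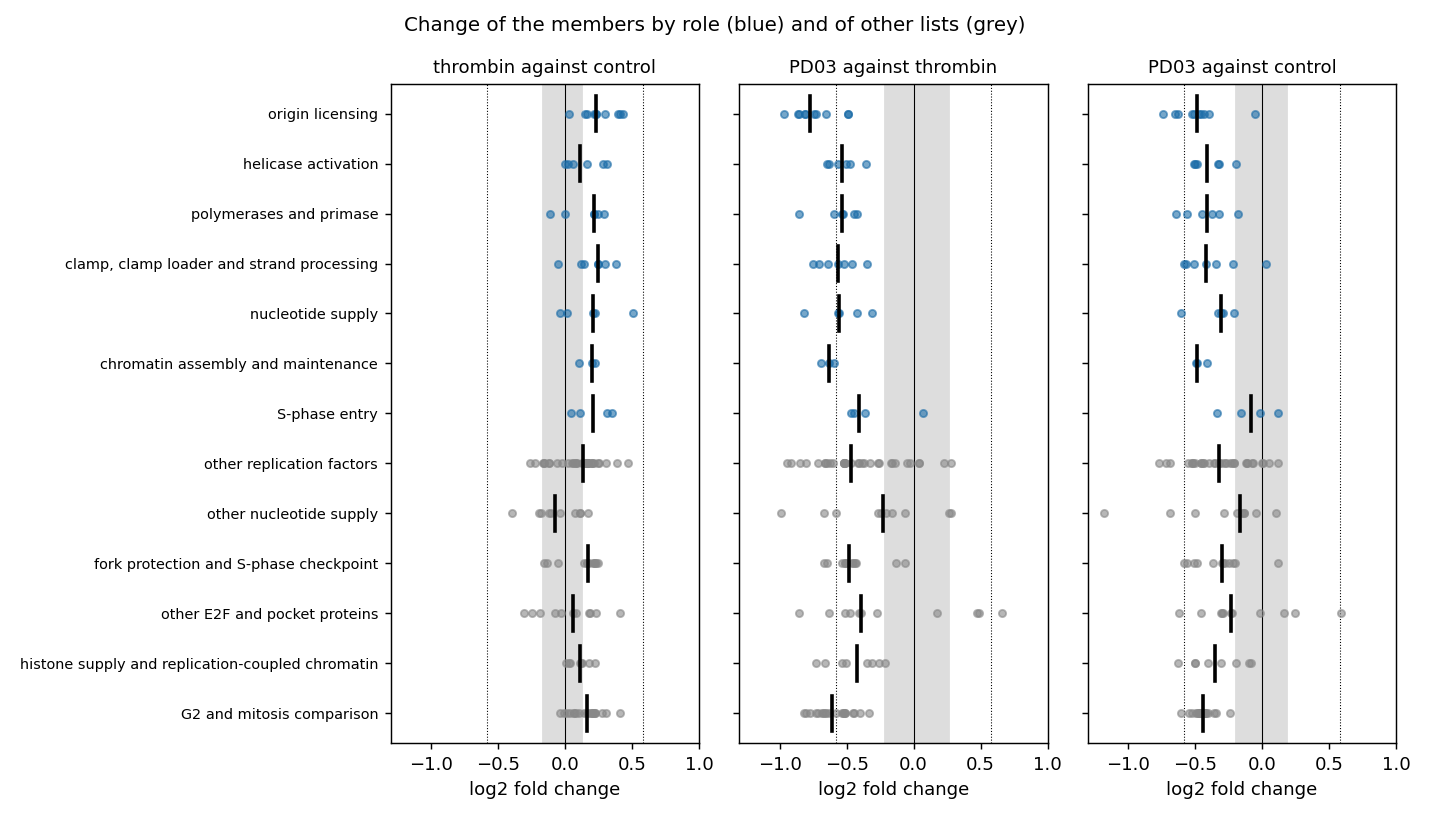
Log2 fold changes of the members by role (blue) and of 6 other lists (grey) in the 3 comparisons; each point is a gene, black bars are medians, the grey band spans the middle 50% of all genes tested and dotted lines mark the fold threshold of 0.58. With PD03 against thrombin, medians run from -0.77 for origin licensing to -0.23 for other nucleotide supply, all below 0.

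Some counts carry a limit from the annotation. On the assembly GRCr8, 14 of the 41 genes overlap another gene and 7 a coding one: Gins2, Pole2, Fen1, Lig1, Rrm2, Uhrf1 and Ccne2. Where strand is not known, reads in the overlap cannot be told apart. Of the 5 coding neighbours that were tested, only Cys1, which overlaps Rrm2, passed with PD03 against thrombin, and it was higher, at 0.82 (adjusted p = 0.0189), where Rrm2 was lower. For PD03 against control only Zswim9, which overlaps Lig1, passed, and it was higher, at 0.35 (adjusted p = 0.0277), where Lig1 was lower. None of these neighbours passed with thrombin alone.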

How the data were processed

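Per the labels and the paper, reads were trimmed with fastp by the authors and mapped with HISAT2 to a rat assembly (Rnor_6.0 in the paper, mRatBN7.2 in the submitters' processing notes) and counted them per gene (featureCounts in the paper, HTSeq 0.13.5 in the notes). The sources used here give neither annotation release nor strandedness. The authors deposited raw counts and FPKM values per gene and library, and replicates were not pooled. Counts were used for all tests, FPKM for levels between genes and as an alternative.

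In edgeR 4.0.16 under R 4.3.3 (alternatives: DESeq2 1.42.0, limma 3.58.1), genes were kept by filterByExpr (minimum count 10), scaled by TMM and fitted over all 9 libraries by the quasi-likelihood method (biological coefficient of variation 4.28%). Standard errors came from the F statistic. The thresholds are those of the study. The procedure was tested on simulated data. Libraries of the same group varied beyond sampling error (chi-square divided by its degrees of freedom, 1.82 to 4.04), and each was treated as a sample. Such a spread cannot show whether they came from separate animals or cultures. Figures used Python 3.11.15 and matplotlib 3.10.9.

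Members and lists were chosen with earlier results of these data known. Per-library values are given for Mcm2, Pcna and the 3 members with the largest rise and fall past the adjusted p in each comparison, and others singled out in this way were chosen after their values were seen. From each other list at most 2 called genes per direction are named, and some results are not reported here. Alternatives covered scaling, filter, tool, fold threshold, FPKM, a block for replicate number and the omission of each library.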

Additional observations from a re-analysis of the deposited data

How the results depend on the processing

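Of the counts of called members, 19 lower for PD03 against thrombin and 6 lower for PD03 against control moved most with the fold threshold and the scaling. For PD03 against thrombin the count was 29 with library totals, 29 from log2(FPKM + 0.1), 10 when the fold itself was tested against 0.58 (glmTreat), 40 with no fold threshold and 0 with a log2 threshold of 1. For PD03 against control it was 17 with library totals, 10 from log2(FPKM + 1), 16 from log2(FPKM + 0.1), 0 with glmTreat, 33 with no fold threshold and 0 with a threshold of 1. For thrombin against control 25 were higher with no fold threshold. Library totals and FPKM lower the median of all genes by as much as 0.12 (to -0.12) for PD03 against control, and the median of the members there was at its lowest -0.54. By adjusted p alone, over 18 settings, 39 to 40 members were lower with PD03 against thrombin, 32 to 38 against control, and 19 to 26 higher and 0 lower with thrombin.

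Leaving out 1 library gave 18 to 22 called against thrombin, 5 to 7 against control, and 39 to 40 differing among the 3 groups. The calls lost were close to the fold threshold and stayed past the adjusted p. Against thrombin, Pole was at -0.54, -0.56 and -0.56 without Thrombin replicate 3, PD03 replicate 2 and PD03 replicate 3, Chaf1b at -0.56 and -0.55 without PD03 replicates 1 and 2, Rad1 at -0.58 without Thrombin replicate 3, Hells at -0.56 without PD03 replicate 3 and Rb1 at 0.58 without Thrombin replicate 2. Against control, Rfc4 was at -0.58, -0.57 and -0.53 without Control replicate 1, PD03 replicate 1 and PD03 replicate 3, Pole2 at -0.57 without Control replicate 3, Tyms at -0.57 without PD03 replicate 1, Hus1 at -0.56 and -0.53 (Control 1, PD03 1), Hells at -0.53 and -0.52 (Control 1, PD03 3), E2f8 at -0.55 and -0.56 (Control 3, PD03 1), and Rb1 at 0.55, 0.52, 0.58, 0.58 and 0.54 (Control 2, Control 3, Thrombin 1, Thrombin 2, PD03 3). Over all tested genes, deviations of same-numbered samples had correlations of -0.046 to 0.052, which show no pairing but cannot exclude it. With the replicate block the counts were 0, 19, 6 and 40, as without it.

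The calls of Rb1 against thrombin and control also ended with library totals (0.56 and 0.47), log2(FPKM + 1) (0.44 and 0.38) and log2(FPKM + 0.1) (0.55 and 0.46), and that against control without a filter (0.58). Rfc4 against control lost its call with DESeq2 size factors (-0.5798) and in DESeq2 (-0.5797). From log2(FPKM + 1), calls ended for Hells against thrombin and control (-0.55 and -0.53), and against control for Hus1 (-0.52) and E2f8 (-0.56).

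Single genes changed sign only where the value was near 0. With library totals, log2(FPKM + 1) and log2(FPKM + 0.1), Rrm1 with thrombin became -0.0025, -0.0021 and -0.0022, Fen1 for PD03 against control -0.085, -0.080 and -0.084, and E2f2 for PD03 against thrombin -0.029, -0.014 and -0.025. With thrombin, Gins4 and Pola1 became 0.0074 and 0.0045 with DESeq2 size factors, 0.0073 and 0.0044 without a filter and 0.0077 and 0.0041 in DESeq2. Leaving out 1 library, Gins4 ran from -0.081 to 0.071, Pola1 from -0.041 to 0.049, Gins3 from -0.070 to 0.085, Mcm4 from -0.0098 to 0.058 and Rrm1 from -0.0003 to 0.038 with thrombin, E2f2 from -0.0064 to 0.14 for PD03 against thrombin, and Ccne2 from -0.063 to 0.047 for PD03 against control. The cause was not tested.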
